A study of Mus musculus with 40 samples.

Results

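The 8 genes described here belong to the basic helix-loop-helix (bHLH) family and act in the formation of neurons. They were followed through 24 whole mouse embryos at embryonic day 9.5 (E9.5): *Bhlhe22*, *Neurog1*, *Neurog2*, *Neurod1*, *Neurod4*, *Olig2*, *Olig3* and *Hes5*. They were taken by gene symbol from the count tables, which list 26411 genes, and all 8 members passed the filter on low counts together with the other genes of a set of 14183. The list was drawn up with results of these libraries in view. *Bhlhe22* in particular was chosen by its level in *Kat6a*-/- embryos, since it stood out where *Kat6a*-/- embryos were compared with those that carry point mutations in both genes. Its values in comparisons with *Kat6a*-/- are therefore given as a description, with no test.

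The embryos had 6 genotypes at the genes for the histone acetyltransferases KAT6A and KAT6B, with 4 embryos of each. WT embryos carried no mutation. *Kat6a*-/- embryos were homozygous for a null allele of *Kat6a* (cfd/cfd in the labels) and *Kat6b*-/- embryos for a null allele of *Kat6b* (dec/dec), both made by deletion of exons in every cell of the body. *Kat6a*E/E embryos were homozygous for the substitution G656E and *Kat6b*E/E embryos for G577E, single amino acid changes in the acetyltransferase domain, and embryos with the label of the form *Kat6a*E/E;*Kat6b*E/E were homozygous for both and are called double E/E here. All were on a C57BL/6 background, and no group received a treatment. In a further 16 libraries of LSK cells, the stem and progenitor population of the blood, from the E14.5 fetal liver, *Neurog1*, *Neurog2*, *Neurod1* and *Olig3* had a count of 0 in all 16, the counts of *Bhlhe22*, *Neurod4* and *Olig2* did not exceed 3, and *Hes5* had 2 to 63 counts.

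The bHLH factors bind DNA in pairs at a short sequence called an E-box. Proneural factors such as *Neurog1* and *Neurog2* push a progenitor out of the cell cycle and towards a neuron, *Neurod1* and *Neurod4* act later in the same course, and *Olig2* and *Olig3* help to set up the domains of the ventral and dorsal neural tube. *Bhlhe22*, a repressor of the same superfamily, is known from neurons of the dorsal spinal cord, the cortex and the retina. *Hes5* works against them: it is switched on by Notch receptors and keeps a cell in the progenitor state by repressing proneural genes.

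The E9.5 libraries held 8401990 to 23339359 read pairs assigned to genes, with a median of 15317052, and came from 17 litters. Embryos of 3 litters gave both a WT and a mutant library, and no *Kat6b*E/E or double E/E embryo shared a litter with a WT embryo, so that litter and genotype cannot be told apart there. The study used male embryos, yet *Xist*, the transcript of the inactive X chromosome, was above 1 CPM (counts scaled to a common library size) in 3 libraries, *Kat6a*-/- replicate 2 and *Kat6b*-/- replicates 2 and 3, and 4 Y-linked genes were above 1 CPM in the other 21 only. Double E/E replicate 2 stood apart from the other libraries of its genotype, with a chi-square of the counts per degree of freedom of 31.9, 32.1 and 22.6 in its pairs against 3.68 to 8.46 in the pairs without it; no member was called in double E/E against WT with or without this library. Counts over the whole *Kat6a* and *Kat6b* genes do not check the null alleles: *Kat6a* was at 176 ± 8.79 CPM (SD, n = 4) in WT and 166 ± 4.65 in *Kat6a*-/- embryos, and *Kat6b* was at 40.5 ± 2.51 CPM in WT and 54.5 ± 2.75 in *Kat6b*-/- embryos. Markers of neural progenitors, neurons, embryonic blood and heart were detected in every library. Of the placental markers, *Tpbpa* was at 0 in all libraries and the summed level of the 5 markers was at most 1.25 CPM. The 6 markers of yolk sac or visceral endoderm varied widely. They summed to 23.7 to 135 CPM in WT, 2.72 to 131 in *Kat6a*-/- and 10.9 to 35.9 in *Kat6b*-/- embryos. The sums were 22.1 to 52 CPM in *Kat6a*E/E, 13.5 to 39.3 in *Kat6b*E/E and 21.5 to 32.7 in double E/E embryos. The source of this RNA was not tested.

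The 8 genes are scattered over the genome, and their upstream sequences have little in common beyond the E-boxes that can be read in several of them. Positions are those of GENCODE vM39 on GRCm39. *Bhlhe22* is a gene of 1 exon on chromosome 3 (18108338 to 18111681, plus strand), and *Neurog2* lies far from it on the same chromosome (127426448 to 127429280, plus strand, 2 exons). *Olig3* (chromosome 10, 19232281 to 19234352, plus strand, 1 exon) and *Neurod4* (chromosome 10, 130104021 to 130116132, minus strand, 2 exons) share a chromosome without being neighbours. *Neurog1* is on chromosome 13 (56398291 to 56399976, minus strand, 1 exon), *Neurod1* on chromosome 2 (79282865 to 79287294, minus strand, 2 exons), *Olig2* on chromosome 16 (91019435 to 91025567, plus strand, 2 exons) and *Hes5* on chromosome 4 (155045373 to 155046828, plus strand, 3 exons). The libraries did not mark the strand, so reads from the long non-coding RNAs annotated on the opposite strand of *Bhlhe22* (Gm66310), *Olig3* (Gm67536) and *Hes5* (Gm20421) cannot be told apart from those of the genes. *Neurod1* and *Olig2* each overlap 2 other annotated genes, in the case of *Neurod1* including *Cerkl* on its own strand.

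The 250 bases upstream of the annotated start are shown 5′ to 3′ for *Olig3*, which was above WT in 2 of the 4 *Kat6a*-/- embryos, and for *Hes5*, the Notch target. Capitals mark the E-box CANNTG in *Olig3* (chr10:19232031-19232280, plus strand). In *Hes5* (chr4:155045123-155045372, plus strand) they mark GTGGGAA on either strand, the core of the site bound by RBPJ, the DNA-binding partner of Notch receptors.
Olig3: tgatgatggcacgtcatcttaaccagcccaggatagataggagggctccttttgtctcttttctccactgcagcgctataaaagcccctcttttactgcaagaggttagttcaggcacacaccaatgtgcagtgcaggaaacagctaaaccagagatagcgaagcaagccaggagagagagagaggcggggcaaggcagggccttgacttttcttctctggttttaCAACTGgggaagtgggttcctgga
Hes5: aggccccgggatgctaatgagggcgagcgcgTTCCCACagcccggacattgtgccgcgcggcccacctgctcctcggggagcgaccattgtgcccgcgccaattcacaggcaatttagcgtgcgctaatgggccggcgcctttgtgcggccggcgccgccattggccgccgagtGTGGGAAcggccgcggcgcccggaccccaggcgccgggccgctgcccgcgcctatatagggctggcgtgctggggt

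All windows were taken upstream of the start of the canonical transcript of a gene, which need not be the outermost start annotated. That of *Olig2* thus lies inside the annotated gene, and that of *Neurod1* partly so. Of the windows described here, that of *Neurod1* holds 3 E-boxes, those of *Neurog1*, *Neurog2*, *Olig3* and *Hes5* hold 1 each and those of *Neurod4* and *Olig2* none. Such a match is common: of 21603 windows of the same length upstream of protein-coding genes, 64.6% hold CANNTG. The RBPJ core GTGGGAA occurs 2 times in *Hes5* and in 5.44% of all windows. The windows of *Hes5*, *Neurog1* and *Neurog2* are rich in G and C (72%, 70.8% and 67.2%, against a median of 53.2% over all windows) and hold 33, 27 and 22 CpG dinucleotides (median 8), whereas *Olig3* (50.8%, 4 CpG) and *Neurod4* (52.4%, 2 CpG) are not. No binding was measured in these windows.

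In WT embryos *Hes5* was the most abundant of the 8 transcripts and *Bhlhe22* the least. Per length of transcript, *Hes5* was at 39.5 ± 2.34 CPM per kb (SD, n = 4), *Olig3* at 10.2 ± 0.782, *Neurog1* at 9.85 ± 1.29, *Neurog2* at 9.04 ± 0.772, *Olig2* at 8.71 ± 0.972, *Neurod1* at 4.98 ± 0.945, *Neurod4* at 4.02 ± 0.871 and *Bhlhe22* at 1.11 ± 0.242. The ranges of neighbouring genes from *Olig3* down to *Olig2* overlapped, as did those of *Neurod1* and *Neurod4*. Gaps without overlap separated *Hes5* from *Olig3* (lowest *Hes5* value 36.4, highest *Olig3* value 10.9 CPM per kb), *Olig2* from *Neurod1* (7.88 and 5.59) and *Neurod4* from *Bhlhe22* (2.77 and 1.32). *Bhlhe22* thus rested on few reads, 42 to 49 counts in each WT library, and stood at the percentile 17.1 of the genes tested.

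*Bhlhe22* was low in *Kat6a*-/- embryos. In the other mutants its mean was between 70.1% (*Kat6b*-/-) and 93.6% (*Kat6b*E/E) of that of WT, without a difference that passed the test. The WT embryos (replicates 1 to 4) had 3.98, 4.20, 3.55 and 2.47 CPM, and the *Kat6a*-/- embryos 0.706, 1.46, 0.938 and 1.17 CPM, from 8, 22, 12 and 25 counts. Every *Kat6a*-/- value was below every value of the other 20 embryos, the lowest of which was 1.93 CPM. The mean was 30.1% of that of WT, and the log2 fold change in the model was -1.57 (SE 0.218, 95% confidence interval -2.02 to -1.12), with a range of -1.72 to -1.49 over 37 alternative fits. In the litter that held both genotypes, the *Kat6a*-/- embryo (replicate 2, one of the libraries with *Xist*) had 36.7% of the CPM of its WT littermate.

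In embryos with the G656E substitution in place of the null allele, *Bhlhe22* was at 3.92, 3.58, 2.60 and 2.70 CPM, which overlapped the WT embryos. The log2 fold change of *Kat6a*E/E against WT was -0.15 (SE 0.171, interval -0.51 to 0.20, FDR = 0.821), and that against *Kat6a*-/- was 1.41 (interval 0.95 to 1.88). The *Kat6a*E/E littermate of a WT embryo had 93.3% of its *Bhlhe22* CPM. The double E/E embryos had 2.59, 3.58, 2.82 and 2.49 CPM, also within the range of WT, with a log2 fold change of -0.20 against WT (interval -0.57 to 0.18) and 1.37 against *Kat6a*-/- (interval 0.91 to 1.84). No *Kat6a*E/E or double E/E value overlapped the *Kat6a*-/- values.

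The mutants of *Kat6b* had more *Bhlhe22* than the *Kat6a*-/- embryos did. The *Kat6b*-/- embryos had 2.31, 2.73, 2.98 and 1.93 CPM, of which 2 were below the lowest WT embryo (log2 fold change -0.29, SE 0.181, interval -0.66 to 0.08, FDR = 0.553). The *Kat6b*E/E embryos had 3.00, 4.28, 3.27 and 2.73 CPM, all above that embryo (log2 fold change -0.06, interval -0.43 to 0.30, FDR = 0.999). Against *Kat6b*-/- the log2 fold change of *Kat6b*E/E was 0.23 (interval -0.15 to 0.61, FDR = 0.767), and that of *Kat6a*-/- was -1.28 (interval -1.73 to -0.82).

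**Figure D1:**
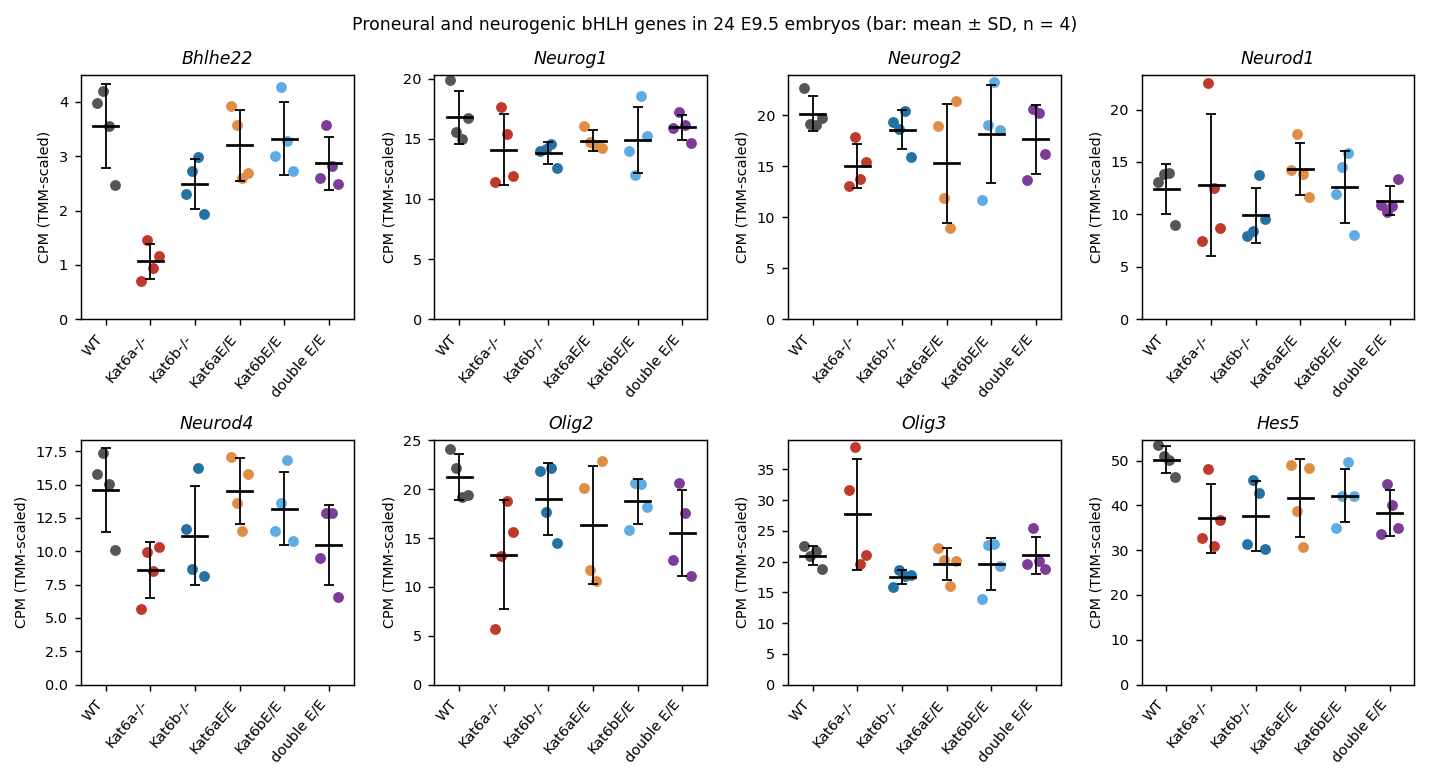
Level of each of the 8 genes (CPM scaled by TMM, linear axis from 0) in each embryo of the 6 genotypes, with double E/E for both substitutions. Points are embryos (n = 4) and bars are mean ± SD; the *Kat6a*-/- embryos are at 0.706 to 1.46 CPM for *Bhlhe22*, below all other embryos, and for the other 7 genes they overlap at least 1 other genotype.

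*Bhlhe22* was the only member called in *Kat6a*-/- against WT, 1 of 8, where 2.64% of all genes tested were called at FDR < 0.05. The same held in *Kat6a*E/E against *Kat6a*-/- (1 of 8, background 1.6%) and in double E/E against *Kat6a*-/- (1 of 8, background 0.00705%), the comparison from which it was chosen. In the last of these *Bhlhe22* is itself the whole of the background, since no other gene was called. These 3 calls follow from the choice of *Bhlhe22* and are no test of it. In *Kat6a*-/- against *Kat6b*-/- *Bhlhe22* and *Olig3* were called (2 of 8, background 1.64%), of which the call of *Bhlhe22* again follows from its choice, so that nothing is read from this count. No member was called in *Kat6b*-/- (background 0.508%), *Kat6a*E/E (0.275%), *Kat6b*E/E (0%) or double E/E (2.91%) against WT, in *Kat6b*E/E against *Kat6b*-/- (0.0353%) or in double E/E against *Kat6a*E/E (0.141%) with limma, and edgeR and DESeq2 gave 0 members there too. At an unadjusted p under 0.05, limma gave 1 member in these 6 comparisons, *Hes5* in double E/E against WT. The comparisons with WT share the 4 WT embryos.

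**Figure D2:**
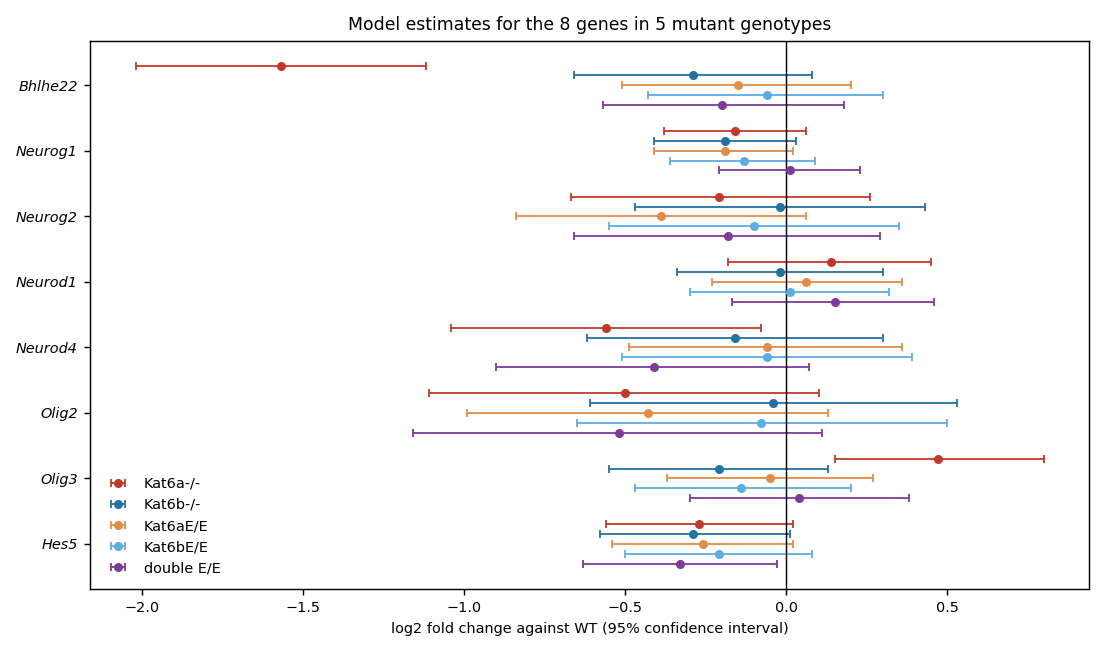
Log2 fold change of each gene against WT in the 5 mutant genotypes, from the model over all 24 embryos; points are estimates and lines are 95% confidence intervals. The estimate of *Bhlhe22* in *Kat6a*-/- embryos, -1.57, lies apart from the others, which are between -0.56 and 0.47.

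The proneural genes *Neurog1* and *Neurog2*, which specify neurons of the cranial ganglia, the dorsal root ganglia and the spinal cord, showed no change that passed the test in any of the 10 comparisons. *Neurog1* was at 19.9, 15.5, 15 and 16.7 CPM in WT and at 11.4, 17.6, 15.4 and 11.9 CPM in *Kat6a*-/- embryos, which overlapped (log2 fold change -0.16, SE 0.107, interval -0.38 to 0.06, FDR = 0.478). In *Kat6b*-/- embryos it was at 12.5 to 14.6 CPM, below every WT embryo, with a log2 fold change of -0.19 (interval -0.41 to 0.03, FDR = 0.495). In *Kat6a*E/E embryos it was at 14.8 ± 0.858 CPM (log2 fold change -0.19, interval -0.41 to 0.02, FDR = 0.547).

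*Neurog2* was at 22.7, 19.1, 19.0 and 19.7 CPM in WT and at 13.1, 17.9, 13.8 and 15.4 CPM in *Kat6a*-/- embryos. These ranges did not overlap, but the log2 fold change in the model, which removes 4 surrogate variables, was -0.21 (SE 0.218, interval -0.67 to 0.26, FDR = 0.694). In a fit of these 8 libraries alone, without surrogate variables, it was -0.39 (FDR = 0.0418). In *Kat6a*E/E embryos it was spread widely, at 18.9, 11.9, 8.97 and 21.3 CPM. The embryos with the low values, replicates 2 and 3, came from the same litter, and the other 2 lay within or just below the range of WT.

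*Neurod1* and *Neurod4* promote differentiation after the proneural step. *Neurod4* had 15.8, 17.4, 15.1 and 10.1 CPM in WT and 5.65, 9.96, 8.52 and 10.3 CPM in *Kat6a*-/- embryos, so that 1 WT embryo lay among the mutants (log2 fold change -0.56, SE 0.227, interval -1.04 to -0.08, FDR = 0.215). In the double E/E embryos it had 9.51, 12.9, 12.9 and 6.60 CPM (log2 fold change -0.41, interval -0.90 to 0.07, FDR = 0.360), and in *Kat6a*E/E embryos 17.1, 13.6, 11.5 and 15.8 CPM (log2 fold change -0.06, interval -0.49 to 0.36, FDR = 0.959). *Neurod4* against *Kat6a*-/- was at a log2 fold change of 0.49 in *Kat6a*E/E embryos (FDR = 0.318).

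*Neurod1* had 13.1, 13.8, 14.0 and 8.95 CPM in WT embryos. In *Kat6a*-/- embryos it had 7.50, 22.5, 12.5 and 8.71 CPM, the widest spread of any member in that genotype relative to its mean, and the log2 fold change was 0.14 (SE 0.152, interval -0.18 to 0.45, FDR = 0.705). The sign of this estimate rested on *Kat6a*-/- replicate 2: it was -0.24 without that library (FDR = 0.521) and -0.27 without the 3 libraries with *Xist* (FDR = 0.452). The highest *Neurod1* value was that of the same replicate, which had 172% of the *Neurod1* CPM of its WT littermate while it had 62.9% of the *Neurod4* CPM. The *Kat6b*-/- littermate of WT replicate 3 had 60.1% of its *Neurod1* and 57.5% of its *Neurod4* CPM, although over all 4 embryos the log2 fold changes in *Kat6b*-/- were -0.02 (FDR = 0.976) and -0.16 (FDR = 0.842).

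The estimates of the *Olig* genes in *Kat6a*-/- embryos had opposite signs, and neither passed the test against WT. *Olig3*, which acts in dorsal progenitors of the spinal cord and hindbrain, was at 22.6, 20.8, 21.7 and 18.8 CPM in WT and at 31.6, 38.6, 19.5 and 21.0 CPM in *Kat6a*-/- embryos. Replicates 1 and 2 were above every other embryo of the study and replicates 3 and 4 within the range of WT; replicates 1 and 4 were littermates. The log2 fold change was 0.47 against WT (SE 0.153, interval 0.15 to 0.80, FDR = 0.105), and that of *Kat6a*E/E against *Kat6a*-/- was -0.52 (SE 0.156, interval -0.85 to -0.20, FDR = 0.098). Each of these comparisons passed the test in 6 of 37 alternative fits, with 6 surrogate variables and without *Kat6b*-/- replicate 1 or 4, *Kat6a*E/E replicate 1 or *Kat6b*E/E replicate 1 or 2, at an FDR down to 0.0139 and 0.00981. Without the 3 libraries with *Xist*, one of which is *Kat6a*-/- replicate 2, the estimates were 0.19 (FDR = 0.727) and -0.21 (FDR = 0.727).

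*Olig3* passed the test in *Kat6a*-/- against *Kat6b*-/- embryos, where it was higher in all 4 *Kat6a*-/- embryos (log2 fold change 0.68, SE 0.157, interval 0.35 to 1.01, FDR = 0.0383). The *Kat6b*-/- embryos had 15.9, 18.7, 17.7 and 17.8 CPM, below the 4 WT embryos, and differed from WT by a log2 fold change of -0.21 (interval -0.55 to 0.13, FDR = 0.656). Without the 3 libraries with *Xist* the difference between the null genotypes was 0.48 (FDR = 0.589), and without *Kat6a*-/- replicate 2 alone it was 0.44 (FDR = 0.336). The call was also lost without *Kat6a*-/- replicate 1 (FDR = 0.109) or 4 (FDR = 0.118), *Kat6b*-/- replicate 3 (FDR = 0.130) or double E/E replicate 2 (FDR = 0.0974). In the point mutants *Olig3* was at 16.0 to 22.2 CPM (*Kat6a*E/E), 13.9 to 22.8 CPM (*Kat6b*E/E) and 18.9 to 25.5 CPM (double E/E), with estimates against WT of -0.05, -0.14 and 0.04 that did not pass the test.

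*Olig2*, which marks the progenitors of motor neurons in the ventral neural tube, was at 24.1, 22.2, 19.2 and 19.4 CPM in WT and at 5.65, 13.1, 18.8 and 15.6 CPM in *Kat6a*-/- embryos. No value overlapped, but the spread among the mutants was wide and the log2 fold change of -0.50 did not pass the test (SE 0.284, interval -1.11 to 0.10, FDR = 0.400). The lowest *Olig2* value of the study, 5.65 CPM, was that of *Kat6a*-/- replicate 1, in which *Olig3* was at 31.6 CPM. In the double E/E embryos *Olig2* was at 12.8, 20.6, 17.6 and 11.1 CPM (log2 fold change -0.52, interval -1.16 to 0.11, FDR = 0.371). In *Kat6a*E/E embryos it was at 20.1, 11.8, 10.6 and 22.9 CPM, with the low values again in the littermates 2 and 3 (log2 fold change -0.43, FDR = 0.638).

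*Hes5*, the Notch effector that represses proneural genes, was at 53.5, 51.1, 50.1 and 46.3 CPM in WT and had its mean below that of WT in all 5 mutant genotypes, with no change that passed the test. It was at 32.6, 48.1, 30.9 and 36.8 CPM in *Kat6a*-/- embryos (log2 fold change -0.27, SE 0.138, interval -0.56 to 0.02, FDR = 0.342) and at 31.5, 45.6, 42.9 and 30.3 CPM in *Kat6b*-/- embryos (log2 fold change -0.29, SE 0.139, interval -0.58 to 0.01, FDR = 0.429). Without the libraries with *Xist*, which include the 2 highest *Kat6b*-/- values of *Hes5*, the estimates were -0.44 (FDR = 0.137) and -0.64 (FDR = 0.175). The *Kat6b*-/- values were all below those of WT, and 1 *Kat6a*-/- value was not. In the double E/E embryos *Hes5* was at 33.7, 44.8, 40.1 and 34.9 CPM, again without overlap with WT (log2 fold change -0.33, SE 0.142, interval -0.63 to -0.03, FDR = 0.226). The single substitutions gave -0.26 (*Kat6a*E/E, interval -0.54 to 0.02, FDR = 0.543) and -0.21 (*Kat6b*E/E, interval -0.50 to 0.08, FDR = 0.998).

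Counted by separation of the raw values, 3 of 8 members lay wholly below WT in *Kat6a*-/- embryos (*Bhlhe22*, *Neurog2* and *Olig2*) and 3 of 8 in *Kat6b*-/- embryos (*Neurog1*, *Olig3* and *Hes5*), where 11.9% and 6.61% of all genes tested did not overlap in either direction. In the double E/E embryos this held for 1 of 8, *Hes5* (background 7.31%), and in *Kat6a*E/E (background 4.94%) and *Kat6b*E/E embryos (background 2.31%) for 0 of 8. The separation of *Bhlhe22* follows from its choice and is no test of it. None of the other members named here passed the test against WT. The median log2 fold change of the 7 members other than *Bhlhe22* was -0.21 in *Kat6a*-/-, -0.16 in *Kat6b*-/-, -0.19 in *Kat6a*E/E, -0.10 in *Kat6b*E/E and -0.18 in double E/E embryos, with medians over all genes tested between -0.004 and 0.001.

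*Bhlhe22* was next set against the mean of the other 7 genes within each embryo, on the scale of log2 CPM. The difference was -2.53 ± 0.22 (SD, n = 4) in WT and -3.93 ± 0.19 in *Kat6a*-/- embryos, whose values were -4.09, -3.84, -4.08 and -3.71. In the other mutants it was -2.74 ± 0.14 (*Kat6b*-/-), -2.49 ± 0.28 (*Kat6a*E/E), -2.46 ± 0.28 (*Kat6b*E/E) and -2.56 ± 0.09 (double E/E), and the lowest value outside *Kat6a*-/- was -2.89. The mean of the other 7 genes was 4.33 ± 0.15 log2 CPM in WT and 3.98 ± 0.32 in *Kat6a*-/- embryos, and *Kat6a*-/- replicate 2 had a value of 4.38 for the other genes with *Bhlhe22* at 0.55.

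**Figure D3:**
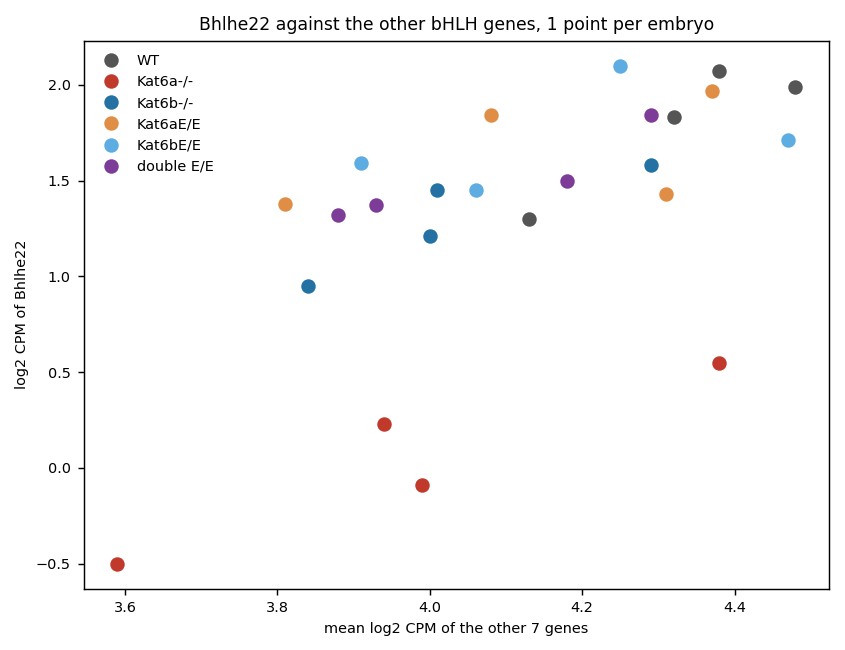
Log2 CPM of *Bhlhe22* against the mean log2 CPM of the other 7 genes, 1 point per embryo, coloured by genotype. The 4 *Kat6a*-/- embryos are between -0.50 and 0.55 for *Bhlhe22*, below the other 20, while their means of the other genes, 3.59 to 4.38, lie partly within those of the other genotypes.

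Genes of the neural tube were lower in *Kat6a*-/- embryos as well. In bulk libraries of whole embryos fewer cells of a type and less RNA per cell cannot be told apart. The gene lists used from here on were chosen with earlier results of these data known. Genes counted as fallen or risen were called, as were 2.64% of all genes tested in *Kat6a*-/- against WT. All 7 listed markers of neural progenitors were in the files and above 0 in every library, and 5 of 7 fell in *Kat6a*-/- embryos, among them *Nes*, a filament protein of progenitors (384 ± 28.7 CPM in WT, 254 ± 25.2 in *Kat6a*-/-, log2 fold change -0.53, FDR = 0.00246), *Sox3* (-0.47, FDR = 0.0059), *Sox2* (-0.33, FDR = 0.0151) and the receptor *Notch1* (-0.31, FDR = 0.00412). The summed CPM of the 7 markers was 925 to 991 in WT, 609 to 795 in *Kat6a*-/-, 673 to 870 in *Kat6b*-/-, 839 to 1050 in *Kat6a*E/E, 856 to 1010 in *Kat6b*E/E and 764 to 864 in double E/E embryos. *Kat6b*-/- and double E/E embryos thus had sums below WT as well, with *Bhlhe22* at 1.93 CPM or more, and the part of these markers in the values of the 8 genes was not tested. The 6 neuron markers summed to 156 to 335 CPM in WT and 137 to 278 CPM in *Kat6a*-/- embryos, which overlapped. In the model, however, all 6 had estimates below 0 and 1 of 6 fell. Their median log2 fold change was -0.43, against -0.33 for the progenitor markers. Over 37 alternative fits 0 to 2 of the 6 neuron markers fell. Without the 3 libraries with *Xist* 5 of 7 progenitor markers fell as well. Without any 1 of WT replicates 1, 2 and 4 it was 3 of 7. With 0 surrogate variables in the model 2 of 7 fell, and with DESeq2 without surrogate variables 6 of 7.

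Among 18 factors that mark domains of the neural tube, 7 fell and none rose in *Kat6a*-/- embryos, where 2.64% of all genes tested were called. The median log2 fold change was -0.59, against -0.002 over all genes tested. *Foxa2*, a factor of the floor plate, was at 11.3 ± 1.71 CPM in WT and 4.95 ± 2.16 CPM in *Kat6a*-/- embryos (log2 fold change -1.03, SE 0.206, FDR = 0.0114). *Nkx6-2*, of ventral progenitors, fell by 1.05 on the log2 scale (FDR = 0.016), *Pax2*, of interneurons and the midbrain-hindbrain boundary, by 0.80 (FDR = 0.0128) and *Irx3* by 0.23 (FDR = 0.0187). Among the 24 neuron genes that act downstream of or alongside proneural factors, 4 fell: the transcription factors *Ebf3* (-0.31, FDR = 0.0214) and *Ebf2* (-0.32, FDR = 0.044), the RNA-binding protein gene *Elavl4* (-0.48, FDR = 0.0283) and *Stmn3*, a regulator of microtubules (-0.83, FDR = 0.0336). Their median was -0.31, with estimates below 0 for 23 of 24 genes. Without the 3 libraries with *Xist* the counts were 7 of 18 and 8 of 24. They depended on single libraries: without WT replicate 1, 2 or 3 the counts were 2, 1 and 2 of 18 and 0 of 24 each time, and without *Kat6a*-/- replicate 3 or 4 they were 4 of 18 and 2 of 24. For the neuron genes the count was also 0 without *Kat6a*-/- replicate 1 or *Kat6b*E/E replicate 4, 2 without *Kat6b*-/- replicate 2 or double E/E replicate 3, and 7 without *Kat6a*-/- replicate 2. The counts depended on the surrogate variables too: 0 of 24 neuron genes fell with 0 surrogate variables, and 9 of 18 domain factors with 6.

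In the model reported, the closer relatives and partners of the 8 genes did not pass the test in *Kat6a*-/- embryos. Of 16 related bHLH factors tested 0 were called, where 2.64% of all genes tested were. The limma p before adjustment was under 0.05 for 4 of them, and the median log2 fold change was -0.16. Their estimates ran from -1.71 to 1.3, so that the lowest was below the -1.57 of *Bhlhe22*. Of 17 bHLH partners and inhibitors, among them the E proteins and *Id* genes, 0 were called, with such a p for 5 and a median of -0.02. The share of all genes tested with such a p was not taken, so nothing is read from these counts. Over 37 alternative fits 0 to 1 of the related factors fell. For the partners and inhibitors it was 0 to 2, with 2 of 17 without the 3 libraries with *Xist*. In the Notch pathway, which drives *Hes5*, 2 of 20 genes fell, *Notch1* and *Lfng*, a glycosyltransferase that modifies Notch receptors (-0.30, FDR = 0.00745), and 1 rose, the ligand gene *Jag2* (0.56, FDR = 0.0389). Of 37 alternative fits, *Notch1* was called in 34, *Lfng* in 37 and *Jag2* in 29. The call of *Jag2* was lost without WT replicate 1, 2, 3 or 4 or *Kat6a*-/- replicate 1 or 3 (FDR up to 0.0743). Among 14 placode and sensory ganglion genes, *Six4* rose by 0.25 (FDR = 0.0484, and 0.117 without the libraries with *Xist*). *Six4* was called in only 10 of 37 alternative fits.

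In the other genotypes fewer of these genes passed the test. In *Kat6b*-/- embryos *Tubb3*, a neuronal tubulin, fell by 0.41 (FDR = 0.0316, and 0.114 without the libraries with *Xist*) and no other gene of these lists was called. The call of *Tubb3* was also lost without any 1 of the 4 WT libraries, *Kat6a*-/- replicates 2, 3 and 4, *Kat6b*-/- replicates 2, 3 and 4, *Kat6b*E/E replicate 3 or double E/E replicate 2 (FDR up to 0.116). In double E/E embryos *Hes1*, a relative of *Hes5* and likewise a Notch effector, rose by 0.34 on the log2 scale (FDR = 0.01), whereas *Heyl* fell by 0.59 (FDR = 0.0204) and *Notch1* by 0.27 (FDR = 0.0144), and the median of the neural tube domain factors was -0.18. *Hes1* was at 58.9 to 85 CPM in double E/E and 44.9 to 52.9 CPM in WT embryos and *Heyl* at 11.6 to 14.9 and 17.5 to 24.7 CPM, without overlap, while *Notch1* was at 108 to 162 and 127 to 158 CPM, which overlapped. Without double E/E replicate 2, the library that stood apart, the log2 fold changes were 0.26 for *Hes1* (FDR = 0.0639), -0.57 for *Heyl* (FDR = 0.046) and -0.31 for *Notch1* (FDR = 0.0509). The calls were also lost without WT replicate 2 (all 3 genes), WT replicate 1 (*Heyl*), WT replicate 3 (*Heyl* and *Notch1*), *Kat6b*E/E replicate 4 (*Notch1*) or double E/E replicate 3 (*Heyl*), at an FDR up to 0.106. None of the listed genes was called in *Kat6a*E/E or *Kat6b*E/E embryos against WT, where the medians of the neural tube domain factors were -0.12 and -0.06.

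**Figure D4:**
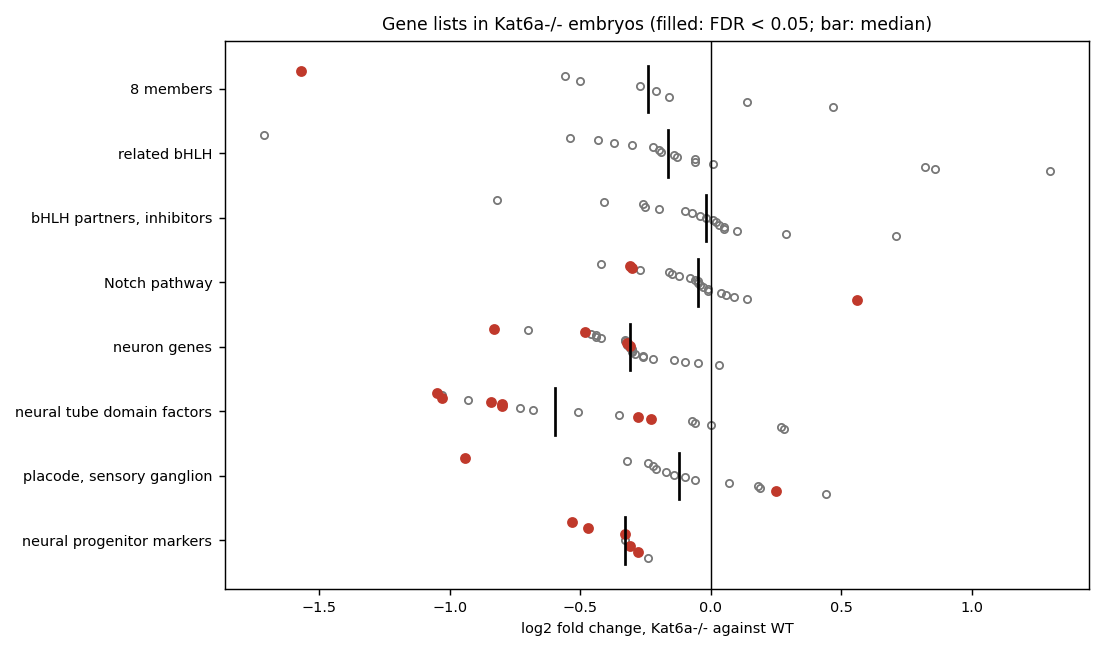
Log2 fold change of *Kat6a*-/- against WT for the 8 members and 7 gene lists; each point is a gene, filled points have FDR < 0.05 over all genes tested and black bars are medians. *Bhlhe22* is the point furthest to the left among the members, and the neural tube domain factors have the lowest median of the lists, -0.59.

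The embryos of a genotype varied together in several of the genes. After removal of genotype means, the closest pair over the 24 embryos was *Neurog2* and *Hes5* (Pearson's r = 0.82, Spearman's rho = 0.84), followed by *Neurod4* and *Olig2* (r = 0.74, rho = 0.74) and by *Bhlhe22* and *Neurod4* (r = 0.73, rho = 0.71). *Olig2* and *Olig3*, by contrast, had r = -0.01 and rho = 0.09, and *Neurod1* and *Neurog2* r = 0.11 and rho = 0.09. These are descriptions: embryos of a litter, embryonic stage and library depth are shared by the points, and scaling to the library total is common to all genes.

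**Figure D5:**
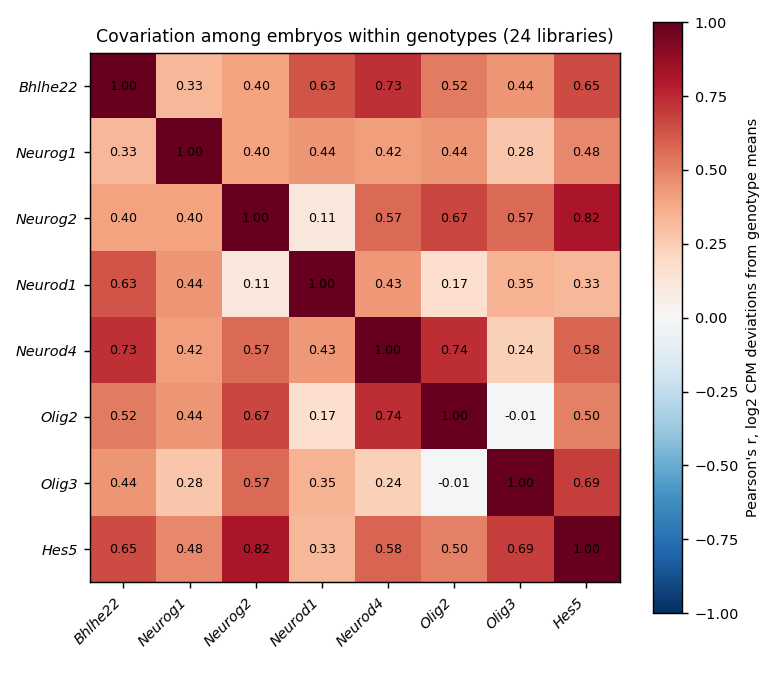
Pearson's r between the 8 genes over 24 embryos, from log2 CPM after removal of genotype means, with red for positive and blue for negative values. *Neurog2* and *Hes5* have the highest value off the diagonal, 0.82, and *Olig2* and *Olig3* the lowest, -0.01.

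Over all 24 embryos, with genotype means kept, the gene among the members most like *Bhlhe22* was *Neurod4* (r = 0.74), at rank 56 of the genes tested, and *Olig3* was the one with a negative value (r = -0.28). The 5 genes most like *Bhlhe22* among those tested were *Sfrp2* (r = 0.87), *Ntn1* (r = 0.86), D430041D05Rik (r = 0.86), *Fgfbp3* (r = 0.84) and *Sim2* (r = 0.84). In this order, their log2 fold changes in *Kat6a*-/- against WT were -0.51, -0.68, -0.57, -0.7 and -1.61. The genes were picked over all 24 embryos, the *Kat6a*-/- embryos included, in which *Bhlhe22* was low. Fold changes below 0 thus follow from the choice, and neither they nor any r given here is a test of these genes. *Sfrp2* codes for a secreted modulator of Wnt signals and *Ntn1* for netrin, the axon guidance cue of the floor plate. The 3 with the most negative values were *Spint1* (r = -0.84), *Etl4* (r = -0.82) and *Itga3* (r = -0.82), of which *Spint1* codes for a protease inhibitor of epithelia and *Itga3* for an integrin. The 4 *Kat6a*-/- embryos lie at one end of these relations: over the other 20 embryos r was 0.63 for *Sfrp2*, 0.53 for *Ntn1*, 0.62 for D430041D05Rik, 0.39 for *Fgfbp3*, 0.68 for *Sim2*, -0.66 for *Spint1*, -0.67 for *Etl4* and -0.67 for *Itga3*.

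The genes next to the 8 members on the chromosome did not pass the test in *Kat6a*-/- embryos. Of all genes tested 2.64% were called there, so that the lack of a call among so few genes says little. The largest estimate was that of *Cxcl14*, 36376 bases from *Neurog1*, at a log2 fold change of 0.64 (SE 0.209, FDR = 0.095). The nearest tested gene to *Bhlhe22*, *Cyp7b1*, an enzyme of steroid metabolism 5730 bases away, had a log2 fold change of 0.18 (SE 0.271, FDR = 0.795), and *Ythdf3*, at 1837137 bases on the other side, one of 0.00 (SE 0.0424, FDR = 0.983). *Olig1*, 41093 bases from *Olig2* and its close relative, was at -0.19 (SE 0.321, FDR = 0.817). *Tnfaip3* and *Ifngr1*, on either side of *Olig3*, were at 0.46 (SE 0.229, FDR = 0.306) and -0.16 (SE 0.091, FDR = 0.373). *Pank4*, 1743 bases from *Hes5*, was at 0.03 (SE 0.082, FDR = 0.902).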

How the data were processed

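Counts per gene, as deposited, were used for 24 E9.5 libraries, with 16 LSK libraries read only for the levels of the 8 genes. The authors obtained these counts of read pairs with featureCounts on mm39, from libraries made without strand information. The members, the gene lists and the comparisons were chosen with earlier results of these data known. Gene types came from a RefSeq table matched by identifier (26359 genes matched, 52 not), positions and sequences from GENCODE vM39 on GRCm39. As in the authors' methods, genes on the Y chromosome and those that do not code for protein were dropped, filterByExpr removed genes of low count, and TMM set the library scale. Surrogate variables (4, by wsva) entered a voomLmFit model in which litters were random effects (correlation 0.107), moderated robustly in limma. P-values were adjusted by Benjamini-Hochberg across the 14183 genes to give the FDR, and called means FDR < 0.05. R 4.3.3, edgeR 4.0.16, limma 3.58.1, DESeq2 1.42.0 and statmod 1.5.0 were used. CPM values are scaled by TMM and not adjusted for surrogate variables. In listed pathways at most 4 called genes per list and comparison are named, by smallest p. Genes like *Bhlhe22* are the 5 highest and 3 lowest by Pearson's r of log2 CPM. Gene neighbours are the nearest tested genes and were looked up after the values were seen. Alternatives were 0, 2 or 6 surrogate variables, no litter block, edgeR, DESeq2, other size factors, no filter, all gene types, a replicate block, only the 8 libraries compared, and omission of each library. Omission of the 3 libraries with *Xist* was chosen after seeing the data. The procedure was tested on simulated data. No replicate libraries agreed within sampling noise. Replicates were separate embryos. Some results for single genes and sequences are not reported here.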

Additional observations from a re-analysis of the deposited data

How the results depend on the processing

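Each value was computed again under 37 alternatives, 24 of which left out a library. Every estimate of *Bhlhe22* in *Kat6a*-/- embryos against WT stayed between -1.72 and -1.49. No called value of any member changed direction. The number of members called in *Kat6a*-/- against WT was 2 with 6 surrogate variables and with only the 8 libraries compared, and 1 to 2 without single libraries. In *Kat6a*E/E against *Kat6a*-/- it was 2 with 6 surrogate variables, 0 with only the 8 libraries compared, and 1 to 2 without single libraries. In double E/E against *Kat6a*-/- it was 0 with 0 or 2 surrogate variables, with edgeR without surrogate variables and with only the 8 libraries compared, and 0 to 1 without single libraries. It was 0 without WT replicate 2 or 3, *Kat6a*-/- replicate 1, 2 or 3, *Kat6b*-/- replicate 1, 2 or 4, *Kat6b*E/E replicate 3 or 4, or double E/E replicate 3, while the estimate of *Bhlhe22* was 1.27 to 1.48 over all alternatives. In *Kat6a*-/- against *Kat6b*-/- it was 0 with 0 surrogate variables and without the 3 libraries with *Xist*, 1 with 2 surrogate variables, with edgeR without surrogate variables and with only the 8 libraries compared, and 1 to 2 without single libraries. The causes were not tested. In the other 6 comparisons 0 members were called under every alternative. Over all genes, the number called ranged from 102 to 631 in *Kat6a*-/- against WT (375 in the model reported) and from 0 to 811 in double E/E against WT (413). It ranged from 0 to 200 in *Kat6b*-/- (72) and 0 to 122 in *Kat6a*E/E (39) against WT, from 3 to 491 in *Kat6a*E/E (227) and 0 to 99 in double E/E (1) against *Kat6a*-/-, from 0 to 30 in *Kat6b*E/E against *Kat6b*-/- (5), from 0 to 182 in double E/E against *Kat6a*E/E (20) and from 0 to 616 in *Kat6a*-/- against *Kat6b*-/- (232), with 0 in *Kat6b*E/E against WT throughout. *Bhlhe22* had 8 to 25 counts in the *Kat6a*-/- libraries, which limits the precision of its level there.

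Replicate numbers were not treated as pairing the embryos. Over 60 pairs of same-numbered libraries the correlation of deviations from the group mean was -0.23 to 0.31 (median 0.05), with 17 pairs over 0.1. Libraries with different numbers were not compared in this way, so a pairing by replicate number was not tested. With a replicate block the number of members called was 1 in *Kat6a*-/- against WT, 1 in *Kat6a*E/E against *Kat6a*-/-, 1 in double E/E against *Kat6a*-/-, 2 in *Kat6a*-/- against *Kat6b*-/- and 0 in the other 6 comparisons, as without it. Over all genes it took the number called in *Kat6b*-/- against WT from 72 to 200.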
